A study of Mus musculus with 12 samples.

Results

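CD8aa T cells from the spleen were compared with thymic precursors of intraepithelial lymphocytes (IELp), both from mice whose T cells lack the transcription factor LRF. The comparison covers 6 of the 12 RNA sequencing libraries of the series, 3 libraries a group, and all 48663 gene rows of the count table. Of these rows, 24248 had no count in the 6 libraries and 14880 passed the low-count filter and were tested. All mice were on the C57BL/6 strain, and both groups carried Cd4 Cre+ with Lrf fl/fl alleles (KO). The Cre enzyme is driven by Cd4 sequences that are active from the stage of CD4 and CD8 expression in the thymus, so deletion is limited to cells that have passed through it. The KO precursors came from the thymus and were sorted as TCRb+ cells that lacked CD4, CD8a and CD44, with high CD5 and PD-1 and with CD122 and H-2Kb. The KO spleen cells were sorted as CD45+ TCRb+ CD8a+ cells without CD4 or CD8b. Each sample held 40000 cells per the series' design text. Stage, tissue and sort gate differ together between the groups, while the genotype is shared. The spleen gate did not use CD44, CD5, PD-1, CD122 or H-2Kb, so the part of the gates in the differences below cannot be told apart. The sources used here do not give ages. Nor do they name separate animals behind the replicates, and the p-values refer to the spread between these samples alone, which may be technical. Among the libraries used here none is of control spleen cells or of KO gut cells, so a genotype effect within one of these tissues was not tested.

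CD8aa intraepithelial lymphocytes are T cells of the gut lining that carry a CD8aa homodimer in place of the CD4 or CD8ab coreceptor. Their thymic precursors are self-reactive thymocytes that receive strong T cell receptor (TCR) signals, lose both coreceptors and express PD-1. In normal mice these precursors leave the thymus and mature in the gut epithelium, where they gain CD8aa, cytotoxic granules and NK receptors. LRF, encoded by Zbtb7a, is a zinc finger repressor that acts with its relative ThPOK in the choice between CD4 and CD8 T cell fates.

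The 6 libraries held 13432598 to 19947734 gene counts each. Levels below are gene counts scaled by library total (CPM), given for spleen replicates 1, 2 and 3 and precursor replicates 1, 2 and 3 in that order, or as mean ± SD (n = 3). Fold changes are log2 ratios of spleen cells to precursors from the edgeR model. Words such as rose, fell and reached describe differences between separately sorted groups. Descent of the spleen cells from these precursors was not tested. Zbtb7a (chromosome 10, 81135220 to 81152995, plus strand, mm10) stood at 61.4, 59.1 and 63.4 CPM in KO spleen cells and 50.8, 43.8 and 42.03 CPM in KO precursors (log2 fold change 0.54 with SE 0.09, edgeR adjusted p = 2.55e-04). Transcript thus remained in all 6 libraries and was higher in the spleen cells. The floxed exons are not named in the sources used here, and a shortened transcript could still be counted. The genes of the sorted proteins check the gates and are no findings. Cd8a stood at 786 to 882 CPM in spleen cells and 43.3 to 49.4 in precursors, Cd8b1 at 2.59 to 4.51 and 4.59 to 7.16, and Cd4 at 2.65 to 8.19 and 1.39 to 2.53. Mitochondrial transcripts took 0.612 to 0.723% of gene counts in spleen cells and 0.429 to 0.547% in precursors (exact permutation test, 2-sided, p = 0.1, the smallest that 3 against 3 libraries allow, and 0.147 after Benjamini-Hochberg adjustment over 22 library measures).

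Over all genes 3370 (22.6% of those tested) were higher in spleen cells and 3330 (22.4%) were lower (adjusted p under 0.05 by edgeR's quasi-likelihood test and the Benjamini-Hochberg method), so 45.0% passed in either direction. At least 2-fold differences made up 1069 of the higher genes (7.18% of those tested) and 1138 of the lower genes (7.65%). In 56.4% of tested genes no spleen library fell within the range of the precursor libraries or the reverse. The split between higher and lower genes depended on the scaling. With libraries scaled by total gene counts alone, 35.9% of called genes were higher, against 50.3% with TMM factors, and the median gene moved to -0.11 on the log2 scale from -0.003. Shares of gene lists below are therefore read against the share of all genes, and small differences near that shift are sensitive to this choice.

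**Figure D1:**
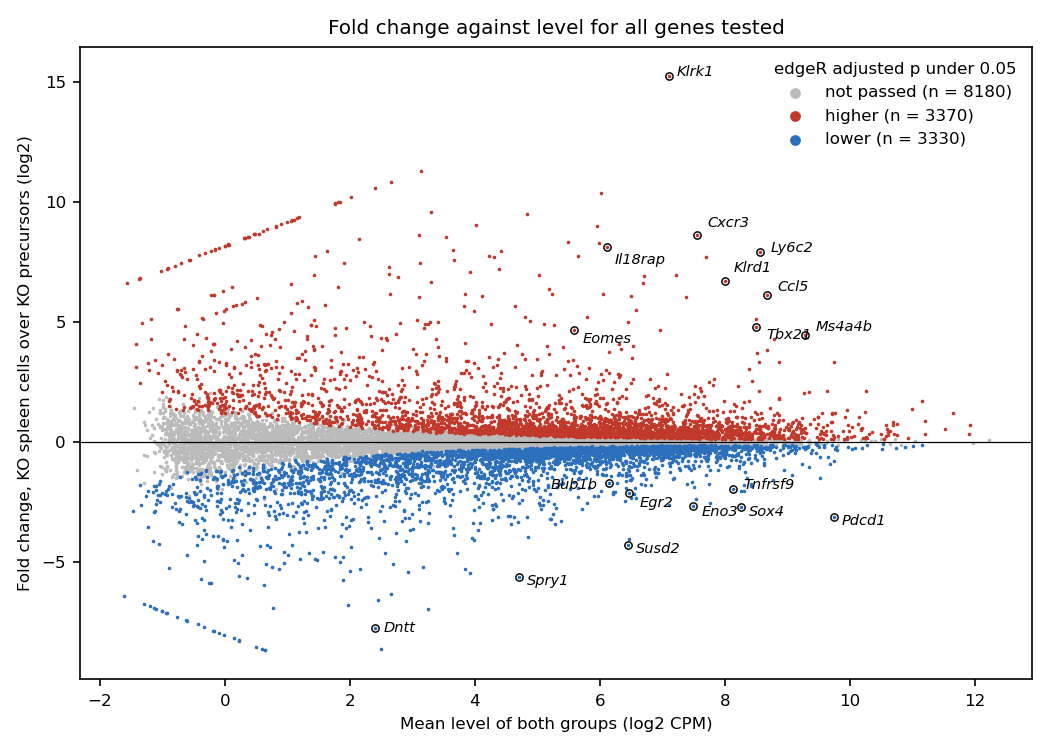
Each point is a tested gene, placed by its mean level over both groups (log2 CPM, x axis) and its log2 fold change in KO spleen cells over KO precursors (y axis), coloured by the edgeR call. Named genes reach from Klrk1 at the top to Dntt near the bottom, and the diagonal rows of points at the edges are genes with no or few counts in one group, whose fold changes depend on the prior count.

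Some markers of other cell types differed between the groups, and 2 spleen libraries stood apart for blood cell transcripts. The 10 erythroid and platelet markers summed to 28.2 and 37.9 CPM in spleen replicates 1 and 2, to 2.38 CPM in spleen replicate 3, and to at most 0.963 CPM in the precursors. The platelet chemokine genes Ppbp and Pf4 were at 9.63, 14.1 and 0.298 and 7.92, 11.97 and 0.298 CPM in the spleen libraries and at 0 in every precursor library. B cell markers were higher in all 3 spleen libraries. The 18 markers summed to 1703 to 1861 CPM against 644 to 667 CPM, and all 16 that were tested passed. Most of that sum was Ighm, the immunoglobulin mu constant region, at 1118 to 1158 CPM in spleen cells and 532 to 562 CPM in precursors. Pax5, a B cell lineage factor, was at 0.551 to 0.688 CPM in spleen cells and did not enter the test. The MHC class II chain gene H2-Ab1, used by B cells and myeloid cells, was at 49.3, 50.6 and 94.99 CPM against 0.726, 0.301 and 0.633, with replicate 3 the highest. Of 12 tested myeloid markers 10 were higher, with sums of 157 to 182 CPM against 59.9 to 64.0 CPM. Lyz2, a macrophage lysozyme, was at 13.5, 20.02 and 3.499 CPM in spleen cells, and Ctss, a protease that T cells also express, made up the largest part of the sum at 89.6 to 91.8 CPM. Ncr1, which marks NK cells, was at 0.301 to 0.635 CPM in spleen cells and 0 in precursors. The whole list of NK and innate lymphoid markers summed to 421 to 506 CPM in spleen cells and 734 to 768 CPM in precursors. Of its 7 tested members, however, 4 were higher in spleen cells and 1 was lower, with a median log2 fold change of 2.30. The sum thus does not give the direction of most members. Regulatory T cell markers summed to 175 to 192 against 286 to 304 CPM, gamma delta T cell markers to 465 to 476 against 344 to 419.5 CPM, and invariant T cell markers to 1034 to 1091 against 873 to 879 CPM. The sums of conventional CD4 or CD8 T cell markers overlapped. In precursors the thymic epithelial markers Foxn1, Krt5 and Krt14 had no counts, and the higher sums of the thymic and gut epithelial lists there, 138 to 142 and 67.1 to 68.0 CPM, rested on Pecam1 (81.8 to 83.2 CPM) and Epcam (55.3 to 56.5 CPM). In bulk samples, fewer cells of a type and less RNA per cell cannot be told apart, and the part of other cells in the results below was not tested unless a value is given.

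**Figure D2:**
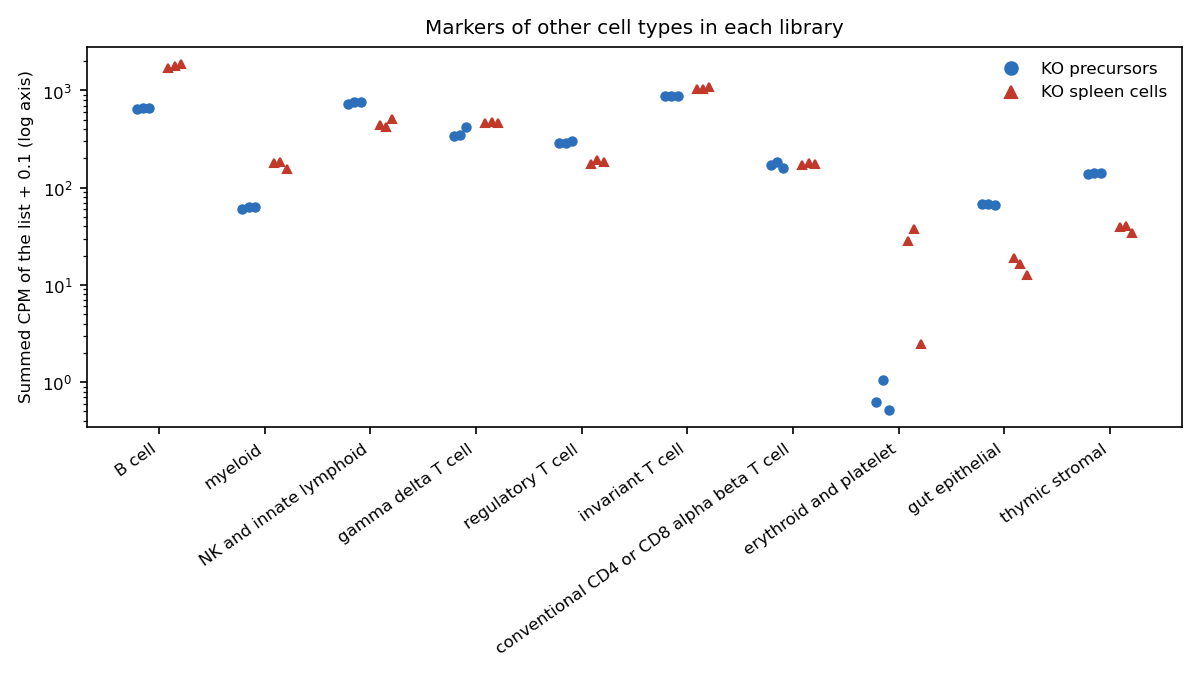
Summed CPM of each list of markers of other cell types (y axis, log scale, with 0.1 added) in each library, with KO precursors as circles and KO spleen cells as triangles. Erythroid and platelet markers vary most within a group, from 2.38 to 37.9 CPM among the spleen libraries.

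Receptors of natural killer (NK) cells were among the genes that rose furthest. These receptors bind MHC class I molecules or stress ligands and adjust killing by NK cells and by some T cells. Of 18 tested NK receptor genes of the CD94, NKG2 and related kinds, 15 were higher in spleen cells (22.6% of all genes were) and 3 were lower. Their median log2 fold change was 6.36, or 5.56 with the 3 genes that had no counts in precursors set at their lower bound, against -0.003 for all genes. Klrk1, which encodes the activating receptor NKG2D, lies on chromosome 6 (129610323 to 129623864, minus strand). It stood at 260.1, 267 and 297 CPM in the spleen libraries and had no counts in any precursor library. With 3 counts over the precursor group as the floor, Klrk1 was at least 4601-fold higher.

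Klrd1, which encodes CD94, the common partner of the NKG2 chains, stood at 511, 513 and 508 CPM in spleen cells and 6.21, 4.76 and 4.85 CPM in precursors (log2 fold change 6.72 with SE 0.08, edgeR adjusted p = 5.62e-15). Klrc1, which encodes the inhibitory chain NKG2A, was at 124, 123 and 143 CPM against 0.3301, 0 and 0, and Klrc2, its activating relative, at 46.6 to 71.7 CPM against at most 0.264. Klre1, a lectin receptor that pairs with KLRI chains, was at 121, 122 and 128 CPM against 0.132, 0.421 and 0.211. Its partners Klri1 and Klri2 reached 14.3 to 20.2 and 9.796 to 11.4 CPM, with 2 counts and no count in the 3 precursor libraries together. Cd226, which encodes the activating receptor DNAM-1, was at 122, 122 and 146 CPM against 1.72, 1.44 and 2.69 (log2 fold change 6.14 with SE 0.16, edgeR adjusted p = 4.63e-12). No library of one group came near any of the other for these genes. The 3 members that fell, named after their values were seen, were Klrb1a, Klrb1 and Pilra, with log2 fold changes of -1.76, -0.66 and -0.39. The call of Pilra was lost in most alternative fits.

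All 10 tested Ly49 receptor genes rose. Ly49 receptors are mouse lectins that recognise classical MHC class I molecules, and several of them are inhibitory. Klra7 stood at 425, 404 and 412 CPM in spleen cells and 1.78, 3.01 and 1.58 CPM in precursors (log2 fold change 7.72 with SE 0.12, edgeR adjusted p = 5.69e-14). Klra9 was at 119 to 131 CPM against 0.301 to 0.528, Klra6 at 203 to 215 against 1.32 to 2.27, and Klra3 at 68.9 to 75.5 against 0.722 to 1.19. The median over the list was 7.99, or 6.31 with the 4 members that had no counts in precursors at their lower bound. Genes of this family are near-identical copies, and reads that mapped to more than 1 place, 16.7 to 17.5% of reads in these libraries, were not counted, so the level of each copy is uncertain. Most of these receptors lie in the natural killer gene complex. Between the outermost list members on chromosome 6 (128609227 to 131247362, mm10), 37 tested genes lay inside a span of 2.64 Mb, and 29 were higher, 4 lower and 4 did not pass. The span was drawn around the receptor genes, so this count describes the region and is no test of it. Cd69, a lectin gene of the egress list, lies in the span as well and was higher (log2 fold change 0.79).

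Promoters of Klrk1 and Klre1 and of the granule gene Nkg7 are shown because the letters of a RUNX site, a motif bound by RUNX factors of cytotoxic T cells, recurred among promoters of these lists. The sequences are from RefSeq on build GRCm38.p6, from 250 bases before the annotated start to 11 bases from it on, 5′ to 3′ on the gene's strand, with matches to TGTGGT on either strand in capitals.
Klrk1 (chr6:129623854-129624114, minus strand): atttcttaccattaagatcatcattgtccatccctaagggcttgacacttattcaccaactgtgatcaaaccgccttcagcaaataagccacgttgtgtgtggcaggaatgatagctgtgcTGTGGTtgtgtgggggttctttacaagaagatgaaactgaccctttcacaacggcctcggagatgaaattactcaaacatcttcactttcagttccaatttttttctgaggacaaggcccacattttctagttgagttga
Klre1 (chr6:129577963-129578223, plus strand): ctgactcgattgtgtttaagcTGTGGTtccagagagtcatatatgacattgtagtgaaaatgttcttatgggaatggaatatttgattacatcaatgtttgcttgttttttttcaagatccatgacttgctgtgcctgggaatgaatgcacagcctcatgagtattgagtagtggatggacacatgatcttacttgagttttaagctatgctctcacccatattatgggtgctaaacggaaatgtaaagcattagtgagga
Nkg7 (chr7:43436888-43437148, plus strand): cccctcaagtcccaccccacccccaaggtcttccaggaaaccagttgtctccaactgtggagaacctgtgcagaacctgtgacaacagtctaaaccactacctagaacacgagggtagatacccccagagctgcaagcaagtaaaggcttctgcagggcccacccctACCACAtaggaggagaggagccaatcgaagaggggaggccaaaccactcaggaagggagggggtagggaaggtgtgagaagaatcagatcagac

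In windows of 300 bases, with 250 before the start and 50 after it, TGTGGT was found in 9 of 12 NK receptor promoters (75.0%) and in 10 of 21 promoters of cytotoxic granule genes (47.6%). Among all tested genes with a RefSeq promoter it was in 1233 of 9502 (12.98%), and among all 27025 promoters in 16.9%. Promoters of genes that were at least 2-fold higher held it in 19.4% and those at least 2-fold lower in 13.1%, and only 1 of 9 Ly49 promoters did (11.1%). Counted from the annotated start, the first base of the match lay at -129 in Klrk1, -229 in Klre1 and -83 in Nkg7. A match describes letters in a window and is not evidence of binding. In all 10 motifs were searched on both strands. The others were the cell cycle homology region (TTTGAA), the CCAAT box, and the letters of E2F (TTCCCGC), KLF (CACACCC), T-box (AGGTGTG), TCF/LEF (TCAAAG), E protein (CAGGTG), NR4A (AAGGTCA) and AP-1 (TGANTCA) sites. Some of the motifs can share bases, such as the cell cycle homology region with TCF/LEF sites and RUNX with KLF or T-box sites. RUNX letters were not the only ones above their share among tested genes. NR4A and AP-1 letters were each in 3 of 12 NK receptor promoters (25.0%), against 3.23% and 4.67% of tested genes. E2F letters were in none of the 12.

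In the list of receptor adaptors and Syk family kinases, 8 of 10 tested members were higher in spleen cells and 1 was lower. Hcst, which encodes DAP10, the adaptor of NKG2D, stood at 46.5, 46.7 and 55.9 CPM in spleen cells and 4.49, 5.48 and 2.901 CPM in precursors (log2 fold change 3.65 with SE 0.18, edgeR adjusted p = 3.02e-09). Tyrobp, which encodes DAP12, was at 90.5, 86.6 and 81.4 CPM against 9.84, 9.99 and 6.86, and Fcer1g, another ITAM adaptor, at 238, 226 and 247 against 96.1, 85.4 and 85.3. Pik3ap1, which links receptors to phosphoinositide 3-kinase, was at 40.98 to 42.6 CPM against 0.241 to 0.3301, and Sh2d1a, the SLAM receptor adaptor SAP, at 78.6 to 90.7 against 29.96 to 30.9. Tyrobp and Fcer1g are also expressed by myeloid cells, whose marker sum was higher in spleen cells (157 to 182 CPM against 59.9 to 64.0). The part of myeloid cells in the values of both genes was not tested.

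Cytotoxic granule genes rose in part. Of 23 tested members 16 were higher and none was lower, with a median log2 fold change of 1.35. Nkg7, a granule membrane protein of killer cells, stood at 1068, 1031 and 1027 CPM in spleen cells and already at 277, 269.7 and 253 CPM in precursors (log2 fold change 2.08 with SE 0.04, edgeR adjusted p = 8.51e-13). Gzmb, the serine protease granzyme B, was at 45.8, 42.8 and 34.02 CPM against 2.51, 4.27 and 3.48 (log2 fold change 3.68 with SE 0.18, edgeR adjusted p = 3.19e-09). Gzma, granzyme A, was at 5.87, 4.55 and 18.1 CPM against 1.72, 2.29 and 3.11 (log2 fold change 2.07 with SE 0.45, edgeR adjusted p = 0.00235), with spleen replicate 3 well above the others. Cst7, an inhibitor of granule cathepsins, was at 123 to 130.2 CPM against 33.7 to 39.5, and Serpinb9, which protects killer cells from granzyme B, at 85.1 to 94.1 against 10.1 to 15.6.

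Among chemokines and cytokines 10 of 13 tested genes rose and 2 fell. Ccl5, a chemokine stored by memory and killer T cells, stood at 818, 794 and 806 CPM in spleen cells and 13.5, 15.5 and 9.02 CPM in precursors (log2 fold change 6.11 with SE 0.12, edgeR adjusted p = 4.15e-13). Ccl3 and Ccl4, chemokines that attract inflammatory cells, reached 29.03 to 32.01 and 36.04 to 47.6 CPM from at most 0.264 and 0.301 CPM. Xcl1, which attracts cross-presenting dendritic cells, was at 68.9 to 87.3 CPM against 17.6 to 18.5, and Ltb, the lymphotoxin beta chain, at 753 to 842 against 409 to 454.

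**Figure D3:**
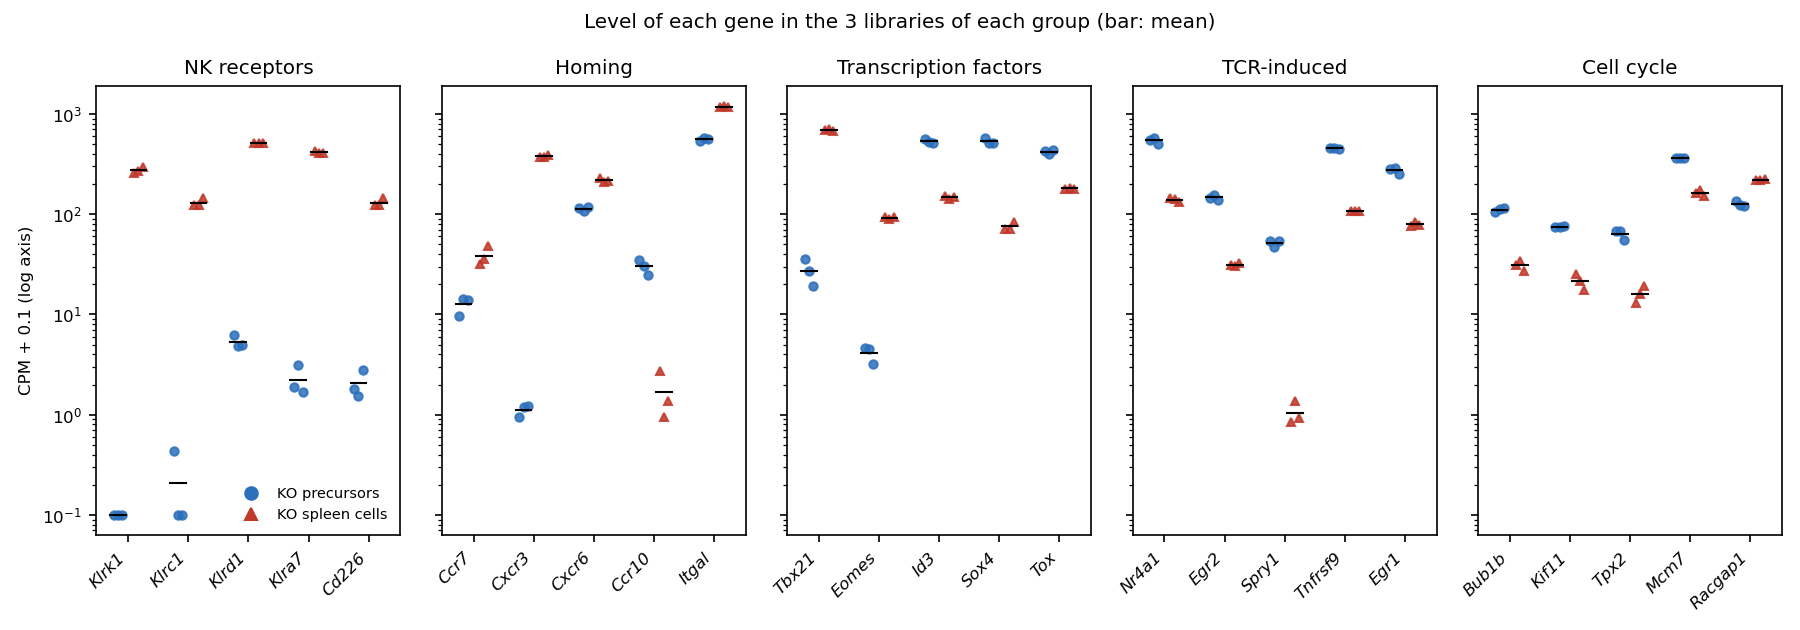
CPM with 0.1 added (y axis, log scale) of 25 genes in each of the 3 KO precursor libraries (circles) and 3 KO spleen libraries (triangles), with a bar at each group's mean. In each of the 25 genes the groups do not overlap. NK receptor genes and Cxcr3 lie far apart, while Cxcr6, Itgal, Tox, Mcm7 and Racgap1 differ by about 2-fold.

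Of 12 tested homing and egress genes 10 rose and 1 fell, at a median log2 fold change of 0.80. S1pr1, the receptor for sphingosine 1-phosphate that guides cells out of thymus and lymph nodes, was already at 249, 229 and 232 CPM in precursors and reached 383, 388 and 385 CPM (log2 fold change 0.81 with SE 0.05, edgeR adjusted p = 1.63e-08). Ccr7, which guides T cells to lymph node T cell zones, was at 31.5 to 47.8 CPM against 9.64 to 14.2. Cd69, which opposes S1pr1 at the cell surface, was at 190.1 to 206 CPM against 114 to 132, and Selplg, the ligand of P-selectin, at 1219.7 to 1244 against 855 to 889. The one member that fell was Cd24a, a surface marker that is high on immature thymocytes, at 6.97, 5.98 and 7.22 CPM against 64.9, 70.8 and 64.4 (log2 fold change -3.20 with SE 0.11, edgeR adjusted p = 8.83e-11). Klf2, a transcriptional activator of S1pr1, was picked after its values were seen. It stood at 261, 266 and 265 CPM in spleen cells and 329.5, 295 and 281 CPM in precursors and did not pass (log2 fold change -0.08 with SE 0.06, edgeR adjusted p = 0.273), although it was called lower with total-count scaling.

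Of 17 tested chemokine receptors 8 were higher and 4 lower, at a median log2 fold change of 0.13. Of all genes 22.6% were higher and 22.4% lower, so the lower count was close to the share of all genes. Cxcr3, which guides effector T cells to interferon-induced chemokines, stood at 369.8, 373 and 388 CPM in spleen cells and 0.858, 1.08 and 1.11 CPM in precursors (log2 fold change 8.62 with SE 0.09, edgeR adjusted p = 2.21e-15). Cxcr6, a receptor of liver and gut homing T cells, rose from between 107 and 117 to between 211 and 231 CPM. Ccr10, a receptor for skin and mucosal chemokines, fell from between 24.7 and 34.99 to between 0.847 and 2.66 CPM in spleen cells (log2 fold change -4.09 with SE 0.28, edgeR adjusted p = 8.61e-08).

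Integrin chains gave 12 higher and 4 lower of 20. Itgal and Itgb2, the paired chains of LFA-1, stood at 1185, 1189 and 1165 and 1485, 1462 and 1479.5 CPM in spleen cells against 543, 576 and 560.0 and 816, 805 and 740.3 CPM in precursors. Their log2 fold changes were 1.19 and 1.02. Itgad and Itgax, other partners of the Itgb2 chain, were at 87.03 to 91.9 and 18.6 to 20.3 CPM against 10.5 to 10.9 and 0.1204 to 0.3301. Itga2, which binds collagen and is part of the NK cell marker DX5, was at 24.01, 23.5 and 22.04 CPM with 3 counts in the precursor libraries together, a ratio of 394 with a 95% counting interval of 134 to 1913. Itgax is also a dendritic cell gene, and the myeloid marker sum moved the same way.

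Genes tied to gut homing and tissue residency split into 13 higher and 6 lower of 22. Gpr15, which guides T cells to the colon, stood at 127, 133 and 148 CPM in spleen cells and 23.3, 20.2 and 19.04 CPM in precursors (log2 fold change 2.82 with SE 0.09, edgeR adjusted p = 5.60e-11). Gpr18, a lipid receptor of intraepithelial lymphocytes, was at 143 to 154 CPM against 9.704 to 11.7, and Hopx, a homeodomain protein of effector and memory T cells, at 76.6 to 83.98 against 5.08 to 6.01. Members that went the other way were Ahr, the aryl hydrocarbon receptor that intraepithelial lymphocytes need to persist, and Nt5e, the ecto-enzyme CD73. Ahr fell from 132, 138 and 138 to 43.5, 41.5 and 41.8 CPM and Nt5e from 315, 323 and 377 to 82.3, 90.4 and 103 CPM. Itgae, the CD103 chain that binds epithelial E-cadherin, was picked after its values were seen and stood at 52.8, 46.02 and 45.4 CPM in spleen cells and 55.4, 60.1 and 74.5 in precursors, a difference that did not pass (log2 fold change -0.29 with SE 0.11, edgeR adjusted p = 0.0527) but did in 5 alternative fits, total-count scaling among them.

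Transcription factors of effector and memory T cells were higher in 14 of 18 tested cases and lower in none. Tbx21, which encodes T-bet, the factor of type 1 responses (chromosome 11, 97098071 to 97115331), stood at 691, 715 and 677 CPM in spleen cells and 35.4, 27.03 and 18.99 CPM in precursors (log2 fold change 4.80 with SE 0.15, edgeR adjusted p = 2.61e-11). Eomes, its relative in memory and NK cells, was at 94.1, 89.9 and 92.6 CPM against 4.49, 4.395 and 3.11 (log2 fold change 4.65 with SE 0.12, edgeR adjusted p = 6.66e-12). Stat4, which transmits IL-12 signals, was at 221 to 262 CPM against 33.3 to 37.1, and Irf8 at 140.2 to 158 against 26.4 to 34.1. Irf8 is also a gene of B cells and myeloid cells, whose marker sums were higher in spleen cells. Runx2, a Runt factor, was at 15.9 to 25.9 CPM against 0.475 to 1.63. The precursors were sorted to lack CD44, which the spleen gate did not use, and the part of the sort in these values cannot be told apart.

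Factors of the thymic agonist programme and of T cell lineage choice mostly fell, with 13 lower and 6 higher of 21. Sox4, a factor of immature thymocytes, stood at 582, 509 and 519 CPM in precursors and 70.9, 71.4 and 83.7 CPM in spleen cells (log2 fold change -2.73 with SE 0.07, edgeR adjusted p = 7.08e-12). Tox, which thymocytes need after positive selection, fell from 422, 401 and 440.4 to 180.1, 184 and 179 CPM, and Foxp3, the factor of regulatory T cells, from 27.5, 32.1 and 32.96 to 6.62, 7.68 and 9.08 CPM. Bcl11b, a guardian of T cell identity, moved the other way, from between 72.8 and 80.01 to between 141 and 165 CPM (log2 fold change 1.10 with SE 0.07, edgeR adjusted p = 5.39e-08). Among E proteins and their Id inhibitors, Id3, which is induced by TCR signals, fell from 556, 529.7 and 516 to 152, 143 and 149 CPM (log2 fold change -1.74 with SE 0.05, edgeR adjusted p = 1.26e-11). The E protein genes Tcf3 and Tcf4 also fell, by 0.23 and 1.05 on the log2 scale, while Tcf12 rose by 0.64.

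Naive and quiescence factors gave 14 higher and 6 lower of 23, at a median of 0.41. The higher members included Klf3, a Krüppel-like repressor, at 248, 243 and 252 CPM against 104, 90.2 and 113, and Slfn2, which keeps T cells quiescent, at 195, 176 and 184 against 75.3, 75.4 and 84.6. Btg1, an antiproliferative factor, was at 1008 to 1113 CPM against 596 to 672. Id3 belongs to this list too and was among its 6 lower members.

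Genes induced by strong TCR signals were lower in spleen cells in 22 of 37 cases and higher in 8, with a median log2 fold change of -0.34. The orphan nuclear receptor gene Nr4a1, a widely used reporter of TCR signal strength, stood at 551, 580.0 and 502 CPM in precursors and 143, 141 and 133 CPM in spleen cells (log2 fold change -1.85 with SE 0.06, edgeR adjusted p = 4.25e-11). Egr2, a zinc finger factor downstream of calcineurin and MAP kinase, fell from 145, 157 and 138 to 31.1, 30.1 and 32.2 CPM (log2 fold change -2.13 with SE 0.08, edgeR adjusted p = 1.12e-10). Spry1, a feedback inhibitor of MAP kinase signals, fell from 53.6, 46.8 and 53.5 to 0.752, 1.27 and 0.819 CPM (log2 fold change -5.62 with SE 0.18, edgeR adjusted p = 3.40e-11). Tnfrsf9, which encodes the costimulatory receptor 4-1BB, fell from 456, 455 and 449 to 108, 108 and 106 CPM. Pdcd1 encodes PD-1, by which the precursors were sorted, so its values of 1481 to 1622 CPM in precursors and 152 to 173 in spleen cells are no finding. It is nevertheless counted among the lower members of this list. The precursors were also sorted for high CD5, and the spleen gate used neither protein. The part of the sort in the direction of this list and its members cannot be told apart. Egr1 and Fos, which can also rise while tissue is dissociated, were at 253 to 289 and 41.8 to 54.00 CPM in precursors against 76.4 to 83.9 and 10.1 to 12.6 in spleen cells. The early-response list as a whole gave 9 lower and 5 higher of 20, and its member Ier5 was higher in spleen cells (143 to 161 CPM against 68.5 to 71.4). The part of handling in these values was not tested.

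Proximal TCR signalling genes went the other way, with 24 higher and 5 lower of 36 and a median of 0.34. Lck, the coreceptor-bound kinase, stood at 2037, 2064 and 2053 CPM in spleen cells and 1215, 1275 and 1257 CPM in precursors (log2 fold change 0.83 with SE 0.03, edgeR adjusted p = 2.98e-10). Txk, a TEC family kinase, was at 321, 323 and 311 CPM against 66.1, 75.4 and 76.2 (log2 fold change 2.24 with SE 0.06, edgeR adjusted p = 1.28e-11), and Nfatc2, a factor activated by calcium, at 124 to 140.0 against 61.8 to 66.5. The phosphatase-like regulators of the UBASH3 family moved apart. Ubash3a rose from between 58.2 and 63.9 to between 145 and 169.8 CPM, and Ubash3b fell from between 527 and 556 to between 238 and 260.0 CPM.

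Inhibitory receptors split into 7 higher and 4 lower of 14. Vsir, which encodes VISTA, rose from 68.6, 64.8 and 70.9 to 235, 261 and 249 CPM (log2 fold change 1.98 with SE 0.06, edgeR adjusted p = 3.80e-11), and Cd244, the SLAM receptor 2B4, from 15.7, 16.01 and 19.4 to 114, 117 and 106 CPM. Cd200r1 fell from 163, 158 and 169.6 to 71.3, 69.05 and 76.3 CPM. Costimulatory and SLAM receptors gave 9 higher and 7 lower of 20, or 8 and 9 with libraries scaled by total counts. Slamf7 rose from 2.44, 2.71 and 1.58 to 208, 209 and 195 CPM (log2 fold change 6.63 with SE 0.12, edgeR adjusted p = 1.83e-13), Cd48, the ligand of 2B4, rose from between 213 and 243 to between 482 and 495 CPM, and Tnfrsf1b, which encodes TNF receptor 2, fell from between 774 and 828 to between 274 and 292 CPM.

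Most cytokine receptor genes rose. Il18rap, a chain of the IL-18 receptor, stood at 138, 129 and 146 CPM in spleen cells and 0.528, 0.722 and 0.369 CPM in precursors (log2 fold change 8.10 with SE 0.15, edgeR adjusted p = 1.83e-13). Il12rb2, the signalling chain of the IL-12 receptor, was at 126, 118 and 117 CPM against 17.8, 16.5 and 14.5. The interferon gamma receptor chains moved apart, since Ifngr1 rose from 315, 312 and 329 to 1274, 1263 and 1297 CPM and Ifngr2 fell from 26.9, 32.9 and 32.2 to 1.85, 1.800 and 3.28 CPM (log2 fold change -3.66 with SE 0.20, edgeR adjusted p = 8.89e-09). In all, 15 of 21 tested receptors outside the common gamma chain family rose and 2 fell. Within that family 6 of 8 rose and 1 fell. Il4ra, the IL-4 receptor chain, was at 329.6, 355 and 480.0 CPM against 58.03, 66.8 and 78.4, and Il21r at 484 to 502 against 239 to 245. Il2rb encodes CD122, which the precursors were sorted to carry. It was higher in spleen cells, at 4651 to 4701 CPM against 2947 to 3173. Il9r was the member that fell, from between 17.8 and 20.5 to between 2.21 and 4.84 CPM. Among JAK, STAT and SOCS genes 9 of 19 rose and 1 fell, or 6 and 4 with total-count scaling, with Jak1 at 2872 to 3033 CPM against 1718 to 1845.

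Interferon response genes were higher in spleen cells in 36 of 42 tested cases and lower in none, with a median log2 fold change of 1.16. Ifit1bl1, a member of the interferon-induced family that binds foreign RNA, stood at 49.7, 44.5 and 52.9 CPM against 1.06, 0.843 and 1.21 (log2 fold change 5.65 with SE 0.16, edgeR adjusted p = 1.58e-11). Slfn8, a Schlafen gene, was at 193, 203 and 179 CPM against 39.7, 45.2 and 44.7, and Zbp1, a sensor of nucleic acids, at 114, 117 and 106 against 37.3, 33.6 and 35.2. Irf7, which amplifies type I interferon production, was at 127 to 131 CPM against 57.04 to 62.9. Immunity GTPases and guanylate-binding proteins, which interferon gamma induces, gave 14 higher and none lower of 16. Tgtp1 and Tgtp2, which are near-identical copies and uncertain for that reason, were at 28.7 to 30.8 and 75.1 to 89.2 CPM against 4.64 to 5.08 and 16.8 to 19.6. Irgm1, an autophagy-linked GTPase, was at 136 to 151 CPM against 69.5 to 71.1, and Gbp4 at 229.5 to 235 against 153 to 159.

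MHC class I and peptide loading genes rose together, with 20 higher and 1 lower of 23 and a median of 0.99. B2m, the light chain of all class I molecules, stood at 2863, 2945 and 2879 CPM in spleen cells and 1321, 1145 and 1163 CPM in precursors (log2 fold change 1.37 with SE 0.05, edgeR adjusted p = 8.68e-11). H2-D1, a classical heavy chain, was at 4359, 4320.5 and 4362 CPM against 2034, 2076 and 2078. H2-Q6 and H2-Q7, which encode nonclassical Qa-2 chains and are near-identical, were at 809 to 903 and 584 to 609 CPM against 86.8 to 95.4 and 78.4 to 79.8. Tapbpl, a peptide editor, was at 296 to 297 CPM against 103 to 109. The immunoproteasome genes Psmb8, Psmb9 and Psmb10, at 572 to 659.9, 141 to 148 and 170.3 to 191 CPM against 412 to 465, 79.5 to 86.8 and 94.2 to 101, rose with them. Across all 37 proteasome subunits tested, 5 rose and 12 fell, a share called of 45.9% that is close to the 45.0% of all genes. The lower count was 19 with total-count scaling, 7 without precursor replicate 2 or 3, and 6 without spleen replicate 2 or 3.

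All 8 GIMAP genes rose. These GTPases are encoded in 1 cluster on chromosome 6 (48647234 to 48770851) and support the survival of mature lymphocytes. Gimap4 stood at 1592, 1567 and 1515 CPM against 185, 172 and 149.8 (log2 fold change 3.32 with SE 0.07, edgeR adjusted p = 3.97e-13), Gimap3 at 1885, 1965 and 2044 against 475, 483 and 493, and Gimap7 at 368, 354 and 361 against 70.8, 72.01 and 66.4. Gimap6 and Gimap8 differed less, with log2 fold changes of 0.68 and 0.65. Of 12 tested genes in the cluster 10 were higher and none was lower. The span was drawn around the GIMAP genes, so this count describes the region and is no test of it. Outside the list, Gimap1os and Gm28053 were higher, and 4833403J16Rik and Gm44226 did not pass. Genes of the BCL2 family, which set the threshold for cell death, gave 3 higher and 7 lower of 15. This imbalance depended on single libraries, since leaving out precursor replicate 1 or 2 gave 4 higher and 4 lower, and leaving out precursor replicate 3 gave 3 and 4. Bcl2l1, which encodes the survival protein BCL-XL, rose from between 14.1 and 17.7 to between 26.1 and 27.1 CPM, and Bmf, a death-promoting member, fell from between 20.9 and 32.3 to between 6.402 and 14.04 CPM.

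Surface proteins of the Ly6 and MS4A families gave 10 higher and 1 lower of 13. Ly6c2, a marker of memory CD8 T cells and monocytes (chromosome 15, 75108158 to 75111970, minus strand), stood at 765, 757 and 740.2 CPM in spleen cells and 3.37, 3.25 and 3.38 CPM in precursors. It had the smallest adjusted p of all 14880 genes tested (log2 fold change 7.93 with SE 0.07, edgeR adjusted p = 1.89e-16). Ms4a4b, a membrane protein of T cells, was at 1183, 1177 and 1196 CPM against 67.2, 59.8 and 51.4 (log2 fold change 4.43 with SE 0.08, edgeR adjusted p = 1.33e-13), and Ms4a6b at 147 to 164 against 24.4 to 29.9. Members of both families have close copies and their levels are uncertain. Ms4a1 of the same family encodes the B cell protein CD20 and was at 13.7, 11.8 and 12.5 CPM in spleen cells and 0 in precursors, beside the other B cell markers given above.

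Genes of earlier thymocytes changed in both directions. Of 16 tested genes of recombination and of double-positive thymocytes, 8 fell and 4 rose, and without the low-count filter 13 fell and 4 rose. Dntt, which encodes the template-free polymerase of receptor recombination, was at 7.79, 10.7 and 13.2 CPM in precursors, with 2 counts in the spleen libraries together, a ratio of 280.8 with a 95% counting interval of 77.4 to 2325. Cd1d1, the molecule that selects invariant T cells, fell from between 104 and 115 to between 52.6 and 56.8 CPM, while Themis, which thymocytes need for positive selection, rose from between 79.4 and 84.3 to between 134 and 153 CPM. Notch receptors and targets gave 7 higher and 7 lower of 19. Dtx1, a Notch target and feedback regulator, stood at 168, 189.6 and 205 CPM in spleen cells and 4.88, 3.31 and 5.12 CPM in precursors (log2 fold change 5.51 with SE 0.13, edgeR adjusted p = 2.01e-12). Notch1 rose from 33.2, 27.5 and 30.3 to 78.8, 85.2 and 112 CPM, and Notch3 fell from 58.9, 46.7 and 36.1 to 15.8, 12.2 and 13.5 CPM (log2 fold change -1.65 with SE 0.17, edgeR adjusted p = 3.54e-06).

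Cell division genes were lower in spleen cells almost throughout. Of 40 tested mitosis genes 39 fell and 1 rose, with a median log2 fold change of -1.43. Bub1b, a spindle checkpoint kinase, stood at 105, 112 and 116 CPM in precursors and 31.1, 34.2 and 27.3 CPM in spleen cells (log2 fold change -1.73 with SE 0.09, edgeR adjusted p = 5.33e-09). Kif11, the motor that separates spindle poles, fell from 74.7, 74.1 and 75.5 to 25.02, 21.3 and 17.5 CPM, Tpx2, a spindle assembly factor, from 68.6, 67.5 and 55.1 to 13.03, 15.8 and 18.98 CPM, and Cenpa, the centromeric histone, from between 88.6 and 95.7 to between 29.5 and 36.7 CPM. The exception was Racgap1, a GTPase-activating protein of cytokinesis, which rose from 134, 124 and 121 to 219, 218 and 222 CPM (log2 fold change 0.91 with SE 0.06, edgeR adjusted p = 2.50e-08). Of 45 DNA replication genes 38 fell and none rose, at a median of -0.66. Mcm6 and Mcm7, subunits of the replicative helicase, fell from 1110.3, 1154 and 1074 to 559.7, 537 and 507 CPM and from 361, 366 and 364 to 161, 174 and 151 CPM, and Rrm2, a subunit of ribonucleotide reductase, from 139, 134 and 123 to 49.2, 53.5 and 36.3 CPM.

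Among clustered histone genes 6 of 20 fell and none rose, a share called of 30% that is below the 45.0% of all genes. Regulators of G1 gave 11 lower and 3 higher of 19. Cdk4, the kinase of G1 progression, fell from between 442 and 466 to between 211 and 242 CPM, while Ccnd3, a D-type cyclin of lymphocytes, rose from between 348 and 352 to between 562 and 591 CPM. The pocket protein genes moved apart, since Rb1 fell from between 180.0 and 189 to between 88.98 and 96.95 CPM and Rbl2, which encodes the p130 protein of resting cells, rose from between 219.8 and 246 to between 322 and 362 CPM. Mxi1, an antagonist of MYC, fell from 105, 104 and 107 to 21.8, 19.96 and 18.1 CPM (log2 fold change -2.28 with SE 0.09, edgeR adjusted p = 2.33e-10).

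Promoters of Kif11, of the exception Racgap1 and of Mcm7 are shown to set the letters of cell cycle motifs beside these changes. For Kif11 and Racgap1 the capitals mark matches to CCAAT and to the cell cycle homology region TTTGAA, and for Mcm7 a match to the E2F letters TTCCCGC, on either strand.
Kif11 (chr19:37376132-37376392, plus strand): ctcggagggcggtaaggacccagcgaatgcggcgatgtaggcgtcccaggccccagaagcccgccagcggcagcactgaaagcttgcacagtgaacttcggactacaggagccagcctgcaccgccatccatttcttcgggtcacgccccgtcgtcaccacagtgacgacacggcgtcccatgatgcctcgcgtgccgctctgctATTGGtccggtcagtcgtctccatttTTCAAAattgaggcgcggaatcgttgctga
Racgap1 (chr15:99651646-99651906, minus strand): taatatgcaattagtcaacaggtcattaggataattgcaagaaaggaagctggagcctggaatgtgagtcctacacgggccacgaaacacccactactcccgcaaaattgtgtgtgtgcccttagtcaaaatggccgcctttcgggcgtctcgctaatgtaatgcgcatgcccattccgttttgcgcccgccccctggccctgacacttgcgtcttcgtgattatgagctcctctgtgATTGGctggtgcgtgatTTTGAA
Mcm7 (chr5:138171873-138172133, minus strand): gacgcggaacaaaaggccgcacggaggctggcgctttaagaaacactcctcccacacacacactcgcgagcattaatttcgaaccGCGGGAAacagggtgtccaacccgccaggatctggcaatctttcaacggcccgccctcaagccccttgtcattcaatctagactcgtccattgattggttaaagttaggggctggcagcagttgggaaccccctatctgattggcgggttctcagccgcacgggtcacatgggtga

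The letters TTTGAA were in 24 of 31 mitosis promoters (77.4%), against 12.2% of the 9502 tested genes with a promoter and 18.1% of all promoters. CCAAT was in 24 of the 31 as well (77.4%), against 38.9% of tested genes and 37.9% of all promoters. TTCCCGC was in 15 of 37 replication promoters (40.5%), against 8.54% of tested genes and 4.66% of all promoters, and in none of the mitosis promoters. Racgap1 held both TTTGAA and CCAAT, although it rose. TTTGAA was also in 7 of 9 Ly49 promoters (77.8%), whose genes rose. Ly49 genes are near-identical copies, so their promoters may not count as separate matches. CCAAT was in 11 of 14 promoters of effector and memory transcription factors (78.6%) and 14 of 19 of MHC class I genes (73.7%), which mostly rose. In other lists that rose it was less frequent, at 44.4% for Ly49, 33.3% for granule, 25.8% for interferon response and 25.0% for NK receptor genes. Neither set of letters alone went with 1 direction.

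Metabolic genes changed in both directions. Glycolysis genes gave 14 lower and 6 higher of 25, with Eno3, a muscle-type enolase, at 324, 313 and 306 CPM in precursors and 49.1, 43.6 and 43.8 CPM in spleen cells (log2 fold change -2.67 with SE 0.06, edgeR adjusted p = 2.51e-12). Tpi1, triose phosphate isomerase, fell from between 409 and 427 to between 199 and 217 CPM, and the lactate exporter Slc16a3 from between 36.00 and 40.3 to between 7.47 and 8.26 CPM, while the glucose transporter gene Slc2a3 rose from between 87.6 and 94.9 to between 189 and 204 CPM. Amino acid transporters gave 7 lower and 1 higher of 12, such as the arginine transporter gene Slc7a1 at 77.9 to 85.6 CPM in precursors against 39.5 to 48.4. In the nuclear respiratory chain list 15 of 90 fell and 3 rose, and among ribosomal protein genes 11 of 80 rose and 4 fell, both below the share of all genes called (45.0%). The counts of these lists depended on scaling. With total counts alone 32 respiratory genes fell and 1 rose, and 14 ribosomal protein genes fell and 6 rose. The fewer called members also moved with single libraries, since 1 respiratory gene rose without precursor replicate 2 or 3, and 1 ribosomal protein gene fell without precursor replicate 2 and 2 without precursor or spleen replicate 3. Cholesterol and fatty acid synthesis genes gave 9 lower and 5 higher of 28, a share called of 50% that is near the 45.0% of all genes, at a median of 0.02. The list gave 11 lower and 2 higher with total-count scaling, 8 and 2 without precursor replicate 3, and 8 and 3 without spleen replicate 3. Its member Scd2, a fatty acid desaturase, stood at 494, 507 and 498 CPM in precursors and 139, 123 and 131 in spleen cells. Chaperones gave 10 lower and 2 higher of 23 (52.2% called), or 14 and 1 with total-count scaling, 9 and 0 in the fit to all 12 libraries, and 8 and 4 without spleen replicate 3. Among the lower members was the heat shock gene Hspa1b at 17.8, 17.6 and 9.598 CPM against 5.92, 5.72 and 3.797.

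**Figure D4:**
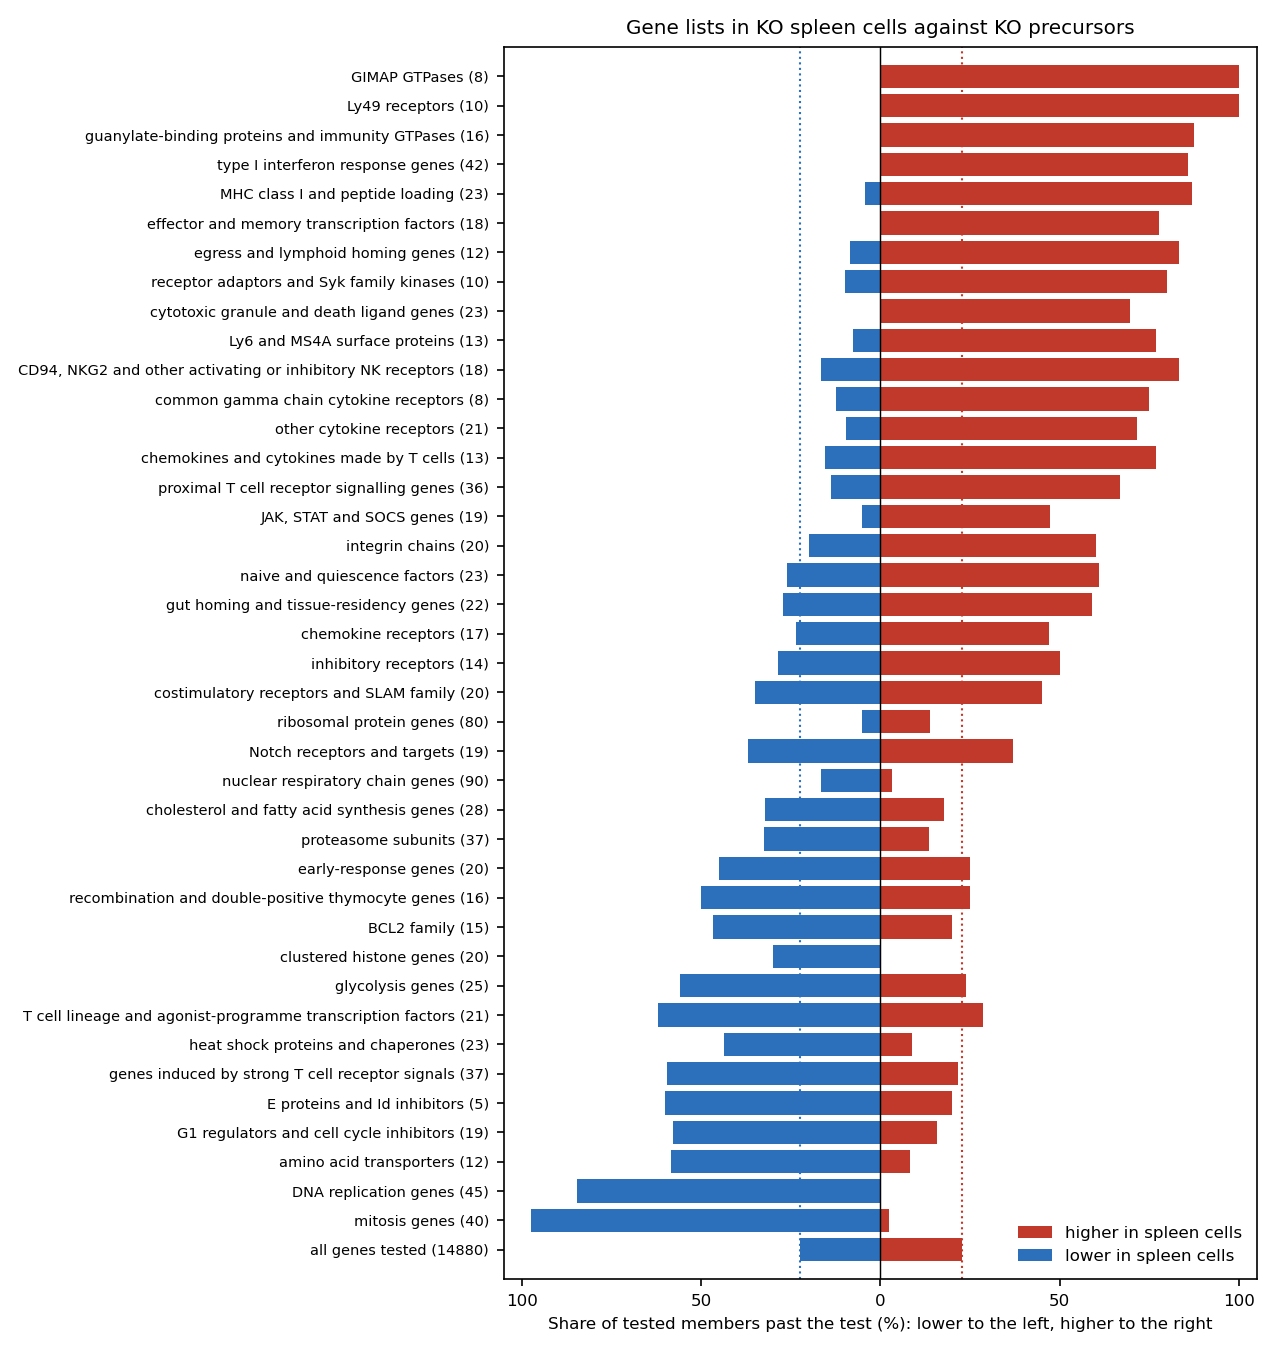
Gene lists with at least 5 tested members (number in parentheses), leaving out the lists of other cell types and of the sorted proteins. Bars give the share of members higher (right, red) and lower (left, blue) in KO spleen cells. All genes tested are at the bottom, with dotted lines at their shares of 22.6% and 22.4%. Lists are sorted by the difference between both shares, from GIMAP and Ly49 genes at the top to mitosis genes.

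Genes outside these lists were among those with the largest differences. Gas7, a cytoskeletal adaptor, was at 20.5, 15.4 and 17.3 CPM in spleen cells and 0 in precursors, at least 301-fold higher. Ctla2a, a cathepsin inhibitor of activated T cells, stood at 90.4, 90.9 and 87.3 CPM against 0.132, 0.301 and 0.422 (log2 fold change 8.32 with SE 0.17, edgeR adjusted p = 6.50e-13). In the other direction, Susd2, a sushi domain membrane protein, fell from 164, 174 and 162 to 9.47, 8.42 and 5.21 CPM (log2 fold change -4.29 with SE 0.14, edgeR adjusted p = 4.19e-11), and Gsta4, a glutathione transferase, from 167, 165 and 172 to 11.8, 7.89 and 8.41 CPM (log2 fold change -4.04 with SE 0.12, edgeR adjusted p = 1.83e-11). Slc27a2, a fatty acid transporter, fell from between 28.1 and 31.97 to between 0.159 and 1.15 CPM, and Ptger3, a prostaglandin E2 receptor, from between 11.6 and 13.5 to between 0 and 0.968 CPM. Scn4b, a sodium channel subunit, was at 12.1, 9.09 and 12.7 CPM in precursors with 1 count in the spleen libraries together, a ratio of 592.5 with a 95% counting interval of 106 to 23444. Adgrg1, an adhesion receptor of cytotoxic cells, and Prnp, the prion protein gene, were also lower in spleen cells, at 0.298 to 1.59 and 0.351 to 1.04 CPM against 20.5 to 30.5 and 10.4 to 16.2.

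The KO step from precursors to spleen cells was then set beside the step from control precursors to control CD8aa IEL, cells of Cd4 Cre- Lrf fl/fl mice. A step here is the difference between separately sorted groups, and descent was not traced. The control IEL passed the same gates as the spleen cells. The difference of both steps was tested over all 12 libraries. Genotype and mature tissue differ together between the steps and cannot be told apart. Of 15757 tested genes, 7353 (46.7%) differed between the steps, 3809 (24.2%) with a higher and 3544 (22.5%) with a lower value in the KO step, and in the control step itself 64.8% of 14878 genes passed. With libraries scaled by total counts alone the split was 4745 higher and 2721 lower, and the median difference was 0.16 against 0.02. Values below are the log2 fold change of the KO step minus that of the control step, fitted over all 12 libraries.

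Klrd1 rose in both steps, by 6.72 in the KO step and 7.14 in the control step, with a difference of -0.45, SE 0.16, edgeR adjusted p = 0.0319. For Klre1 the difference was 0.01, SE 0.13, edgeR adjusted p = 0.985, and for Dtx1 -0.14, SE 0.23, edgeR adjusted p = 0.658, so neither passed. Of 19 NK receptor genes tested for the difference 5 were higher and 5 lower in the KO step, or 5 and 3 with total-count scaling. Over all genes 24.2% were higher and 22.5% lower, so the main counts of this list were close to those shares. Ly49 genes rose more in the KO step in 6 of 10 cases, such as Klra9 (2.36 ± 0.355 CPM in control IEL), with a difference of 6.05, SE 0.58, edgeR adjusted p = 3.60e-07.

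Egress and lymphoid homing genes moved apart between the steps. Of 13 tested, 8 were higher and 4 lower in the KO step (24.2% and 22.5% of all genes were). S1pr1 was at 2.27 ± 0.435 CPM in control IEL and 385 ± 2.53 in KO spleen cells (difference 7.49, SE 0.12, edgeR adjusted p = 2.66e-16), and Ccr7 at 0.0796 ± 0.0947 and 38.3 ± 8.47 (difference 9.09, SE 0.46, edgeR adjusted p = 1.23e-10). Itgal fell in the control step and rose in the KO step (difference 4.22, SE 0.08, edgeR adjusted p = 1.03e-15). Klf2 stood at 5.51 ± 0.589 CPM in control IEL and 264 ± 2.87 in KO spleen cells (difference 5.74, SE 0.12, edgeR adjusted p = 2.34e-15).

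Cytotoxic granule and residency genes had lower values in the KO step in 17 of 24 and 17 of 23 tested cases. Gzmb stood at 14836 ± 264 CPM in control IEL against 40.9 ± 6.11 in KO spleen cells (difference -8.97, SE 0.31, edgeR adjusted p = 1.21e-12), and Itgae at 3775 ± 81.1 against 48.1 ± 4.12 (difference -6.81, SE 0.14, edgeR adjusted p = 1.46e-15). Ahr fell in the KO step and rose in the control step (difference -2.33, SE 0.13, edgeR adjusted p = 5.97e-10). Eomes did the opposite, at 1.04 ± 0.00801 CPM in control IEL and 92.2 ± 2.14 in KO spleen cells (difference 6.74, SE 0.24, edgeR adjusted p = 2.50e-12).

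Cell division genes had higher values in the KO step than in the control step. The difference was higher in the KO step for 33 of 40 mitosis genes and lower for none, and for 33 of 45 replication genes with 2 lower. Bub1b stood at 14.8 ± 1.85 CPM in control IEL and 30.9 ± 3.45 in KO spleen cells, from 144 ± 9.58 and 111 ± 5.19 CPM in the precursors (difference 1.30, SE 0.14, edgeR adjusted p = 1.34e-06). Among interferon response genes 33 of 43 were higher and 3 lower in the KO step, and among ribosomal protein genes 60 of 81 and 2. Cholesterol synthesis genes were lower in the KO step in 23 of 29 cases. TCR-induced genes were split, with 17 of 37 higher and 11 lower in the KO step. Of these, Nr4a1 fell in both steps, with log2 fold changes of -1.85 and -2.57 (difference 0.69, SE 0.10, edgeR adjusted p = 4.46e-05). Egr2 also fell in both (difference 2.01, SE 0.11, edgeR adjusted p = 6.19e-10), while for Spry1 the difference did not pass (0.98, SE 0.46, edgeR adjusted p = 0.0933). Early-response genes were higher in the KO step in 5 of 22 cases and lower in 15. In that list, Fos fell in the KO step and stood at 801 ± 27.1 CPM in control IEL (difference -6.35, SE 0.30, edgeR adjusted p = 6.10e-11). The part of handling in these values was not tested.

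**Figure D5:**
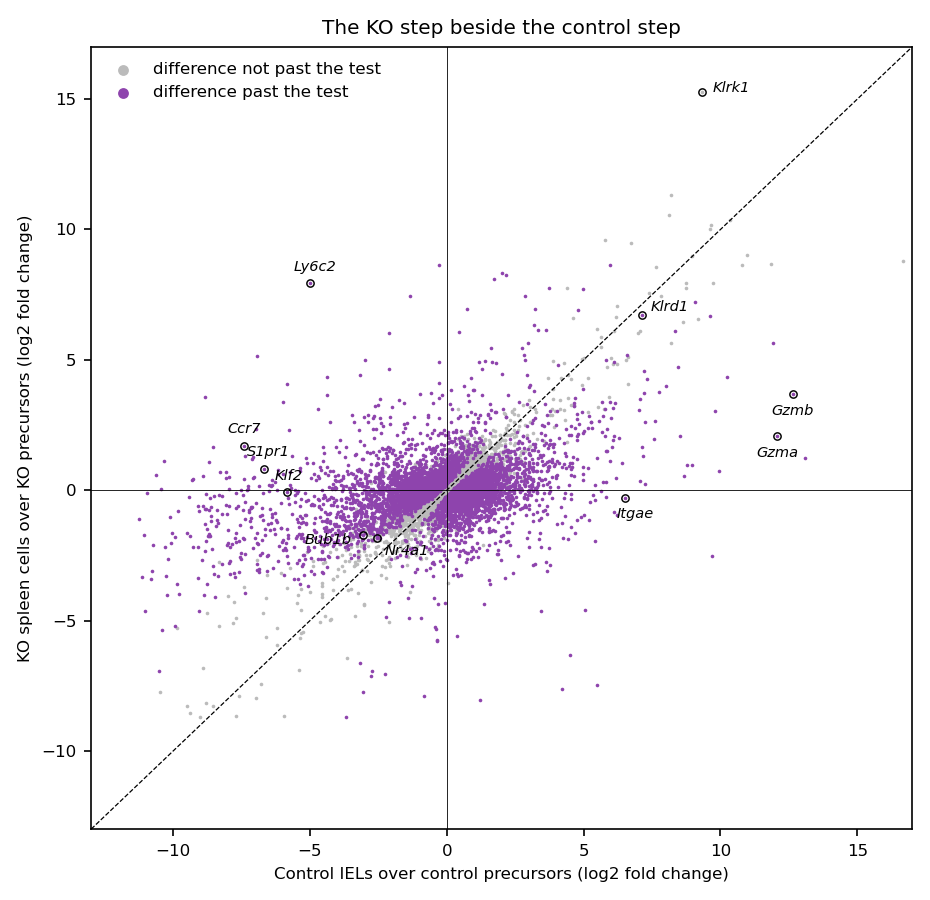
Log2 fold change of each gene in the KO step (KO spleen cells over KO precursors, y axis) against the control step (control IEL over control precursors, x axis) for 14256 genes tested in all 3 fits, in purple where the difference passed. The dashed line marks equal change. Ly6c2, S1pr1 and Ccr7 lie in the upper left, Gzmb, Gzma and Itgae at the right, and Klrd1 near the line.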

How the data were processed

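RNA sequencing libraries of 4 groups of 3 samples were used, 6 in the main comparison. The authors deposited a table of read counts per gene symbol. Per the labels, 40000 sorted cells a sample gave RNA (RNeasy Plus Micro), cDNA (SMARTer Ultra Low Input) and Nextera XT libraries, which were sequenced as pairs of 76 bp reads. The submitters' processing notes name bcl2fastq 2.17, Trimmomatic, STAR, HTSeq, DESeq2 and mm10. The sources used here do not give the strand setting of counting, so overlapping and antisense genes cannot be separated. The 5 summary rows of the counter were left out. Libraries of the groups were labelled and numbered by group, so preparation and stage or tissue cannot be told apart.

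From the counts, edgeR 4.0.16 in R 4.3.3 (filterByExpr, TMM factors, glmQLFit and glmQLFTest) was fitted to the 6 libraries, with Benjamini-Hochberg adjusted p under 0.05 as the threshold, and to all 12 libraries for the difference of steps. CPM is gene counts scaled by the library's total gene count, and SE is the log2 fold change divided by the square root of F. A gene without counts in a group was given 3 counts over that group as a floor, and genes with at most 3 counts there have exact 95% counting intervals, which cover counting error only. Scripts were tested on simulated counts. Named genes are, in each list, the 5 members of smallest adjusted p, with the 15 largest differences in each direction, markers of other cells and the sorted proteins. Some genes that this rule names are not reported here. Members and lists were chosen with earlier results of these data known. Coordinates are from GENCODE M21 (mm10), which held 95.5% of symbols. Alternatives were other size factors, DESeq2 1.42.0, no low-count filter, a replicate block, a test against a 1.5-fold change, a fit to all 12 libraries, and leaving out each library.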

Additional observations from a re-analysis of the deposited data

Results flagged for a closer look

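A difference between the KO step (precursors to spleen cells) and the control step (precursors to gut intraepithelial lymphocytes, IEL) is listed for a closer look for genes furthest in each direction, each tested as a difference of steps over all 12 libraries. Genotype and mature tissue differ together between the steps, and no explanation was tested.

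Ly6c2 rose in the KO step and fell in the control step, with a difference of 12.91, SE 0.20, edgeR adjusted p = 2.66e-16. Its level was 754 ± 12.6 CPM in KO spleen cells and 0.2002 ± 0.131 CPM in control IEL. For Tbxa2r, a thromboxane receptor, the difference was 12.52, SE 0.75, edgeR adjusted p = 6.67e-09, with 19.7 ± 2.099 CPM in KO spleen cells and 0 in control IEL. For Vcam1, an adhesion molecule, it was 12.01, SE 1.06, edgeR adjusted p = 1.23e-07, with 12.3 ± 3.77 CPM in KO spleen cells against 0.0205 ± 0.0355. For Adgrb2, an adhesion receptor, it was 11.53, SE 0.54, edgeR adjusted p = 4.16e-10, with 37.4 ± 2.79 CPM against 0. Values for genes with a group at or near 0 depend on the prior count of the model and are no measure of size.

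Gzma went the other way, with a difference of -10.12, SE 0.78, edgeR adjusted p = 2.60e-08 and 14786 ± 634 CPM in control IEL against 9.503 ± 7.47 in KO spleen cells. For Wnt11, a secreted signalling protein, the difference was -16.72, SE 1.71, edgeR adjusted p = 6.18e-06, with 19.2 ± 7.07 CPM in control IEL and 0 in control precursors. For Dnm3, a dynamin, it was -12.28, SE 1.11, edgeR adjusted p = 5.54e-07, with 43.5 ± 8.92 CPM in control IEL. For Apol9a and Apol9b, near-identical apolipoprotein L copies whose counts are uncertain for that reason, it was -10.88, SE 2.00, edgeR adjusted p = 4.57e-04 and -9.70, SE 0.41, edgeR adjusted p = 1.37e-11, with 36.4 ± 2.42 and 131 ± 6.51 CPM in control IEL.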

How the results depend on the processing

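The main counts of 3370 higher and 3330 lower genes stayed within 1.5 times under other scalings, DESeq2, no low-count filter, the replicate block and a fit to all 12 libraries. A test against a 1.5-fold change left 1135 higher and 1067 lower genes. Leaving out each library in turn gave 2969 to 3301 higher and 2831 to 3222 lower genes, and 3539 to 3988 and 3203 to 3540 genes for the difference of steps. DESeq2 gave 3315 higher and 3173 lower, and scaling by total counts alone gave 2547 and 4544. Same-numbered spleen and precursor libraries hardly deviated together (correlations of 0.003, 0.021 and 0.082 over genes). Spleen replicates 2 and 3 correlated best with their own number, and replicate 1 did not. The groups are of different tissues with 3 libraries each, so these values cannot show whether the numbers pair the samples. With the replicate block 3277 genes were higher and 3272 lower. Of the genes named, those whose call was lost in settings other than the 1.5-fold test were Cd8b1 and Pilra, which lay near the threshold, and the T cell receptor segments. Itgae passed in 5 settings, with a log2 fold change of -0.40 and an adjusted p of 0.00998 by edgeR under total-count scaling, and Klf2 passed in that setting, at -0.19 (adjusted p = 0.0142 by edgeR). No named gene changed direction under these alternatives. Counts of 3 or fewer in a group limit precision to the intervals given, and the depth of 13432598 to 19947734 gene counts a library is shared by all genes.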

Other observations

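Variable segments of the TCR beta chain were spread widely in both groups. Counts on Trbv segments totalled 7912 to 10961 a library in spleen cells and 8783 to 10383 in precursors. The effective number of Trbv segments (the exponential of the Shannon entropy of their shares) was 14.7 to 15.1 in spleen cells and 15.1 to 15.3 in precursors, and that of Trav segments was 46.6 to 47.8 against 48.2 to 51.7. The groups did not overlap in either measure, at the smallest p that an exact 2-sided permutation test of 3 against 3 allows (p = 0.1, adjusted 0.147 over 22 measures). Trbv12-2 took the largest share in both groups, 15.1% of Trbv counts in spleen cells and 14.5% in precursors on average. The other segments given were chosen after their values were seen. Trbv16 was at 10.4% against 8.86%, and Trbv2 at 5.37% against 6.94%. Reads on these short, similar segments may be lost to the rule on unique mapping, so the shares are uncertain.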
